A study of Rattus norvegicus with 6 samples.

Results

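Collagens and laminins are the main structural proteins of extracellular matrix, and their genes were followed here in neuron cultures in which the synaptic scaffold S-SCAM was knocked down. The members are the 31 genes of the count table, of 26405 in all, whose symbol has the form of a collagen chain (Col, a number, a, a number) or of a laminin chain (Lama, Lamb or Lamc and a number). They comprise 7 fibrillar collagens, 12 basement membrane genes, 2 transmembrane collagens, 3 fibril-associated collagens and 7 other collagens. Another 20 collagen and laminin genes carry no such symbol in the table and were named by matching their identifiers to RefSeq; they are described separately as relatives of the members. The RNA came from high-density cultures of hippocampal neurons of embryonic rats, grown on poly-L-lysine. A total of 3 cultures received a lentivirus with an shRNA against Magi2, the gene of S-SCAM, and 3 control cultures received the virus with an empty shRNA vector according to the labels and methods, although a legend of the study names a control shRNA. Both viruses were added at day 2 in vitro (DIV2), and RNA was isolated at DIV9 in both groups. The shRNA was driven by a U6 promoter, which is not specific to neurons, and the virus also carried EGFP. The table gives raw counts of reads per gene, and levels are stated as CPM, counts scaled to library size and composition, listed in the order of replicates 1, 2 and 3 in each group.

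Collagens are trimers of chains wound into a triple helix. Fibrillar collagens such as types I and III form the banded fibrils of connective tissue, and type VI forms beaded filaments beside them. Basement membranes are sheets in which a network of type IV collagen is joined to a network of laminins, each laminin being a trimer of 1 alpha, 1 beta and 1 gamma chain. In the brain such sheets surround vessels and lie under the meninges, whereas fibrillar collagens are made largely by meningeal and perivascular fibroblasts. Transmembrane collagens span the cell membrane and can be shed from it.

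Magi2 was lower in each of the knockdown cultures than in any control culture. It was found at 82.8, 74.7 and 95.8 CPM in the controls and 30.4, 21.1 and 40.4 CPM after knockdown. The two-sided exact permutation p was 0.1, which no comparison of 3 with 3 cultures can go below, and the adjusted p was 0.228 with edgeR and 0.00124 with DESeq2, or 0.0714 with DESeq2 without control replicate 3. Libraries held 13061705 to 29654651 counts. Knockdown replicate 2 stood apart from the other 5 libraries on the first principal component (73.7, against -30.4 to 24.2 in the rest). On that component knockdown replicate 3, at -17, lay nearer the controls (-30.4, -28.6 and -22.1) than knockdown replicate 1 (24.2). Neuronal markers were abundant in every culture, with a summed level of 3740 to 6660 CPM, and markers of astrocytes summed to 2040 to 9140 CPM, so the cultures were mixed. In such bulk samples, fewer cells of a type and less RNA per cell cannot be told apart.

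Most tested collagen and laminin genes were at a lower level in the knockdown cultures, but no single member passed the threshold in the model of condition alone. Of the 31 members, 27 had enough reads to be tested, and 22 of these 27 (81.5%) had a log2 fold change below 0, against 52.4% of the 13917 genes tested. The median log2 fold change, knockdown over control, was -0.43 for the members and -0.024 for all genes. The edgeR quasi-likelihood test with Benjamini-Hochberg adjustment called 0 members at 0.05, and it called 0% of all genes. DESeq2, also in a model of condition alone, called 0 members, against 1.31% of 14832 genes with an adjusted p. With the replicate number as a block, edgeR called 0 members and DESeq2 called 6, where DESeq2 called 294 of 14094 genes.

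At an unadjusted edgeR p under 0.05, 6 members were lower (22.2% of those tested, against 7.14% of all genes) and 0 were higher (against 3.69%). DESeq2 gave 8 such members and limma-voom 7, fits in which the share of all genes at that p was not counted. The 6 by edgeR were Col1a1, Col1a2, Col3a1, Col6a1, Col6a3 and Col8a2. In 5 of the 27 tested members, or 18.5%, the knockdown cultures all lay below all the control cultures, against 10.2% of all genes. In 0 members did they all lie above, against 7.42%. The lowest of the 6 libraries was knockdown replicate 2 for 18 of the 27 tested members (66.7%), against 25.0% of all genes. Without that library the median of the members was -0.14 and the number with an unadjusted edgeR p under 0.05 was 3, which was also the number without control replicate 1 and without control replicate 3. It was 9 without knockdown replicate 3, and the share of all genes at that p was not counted in these fits either.

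**Figure D1:**
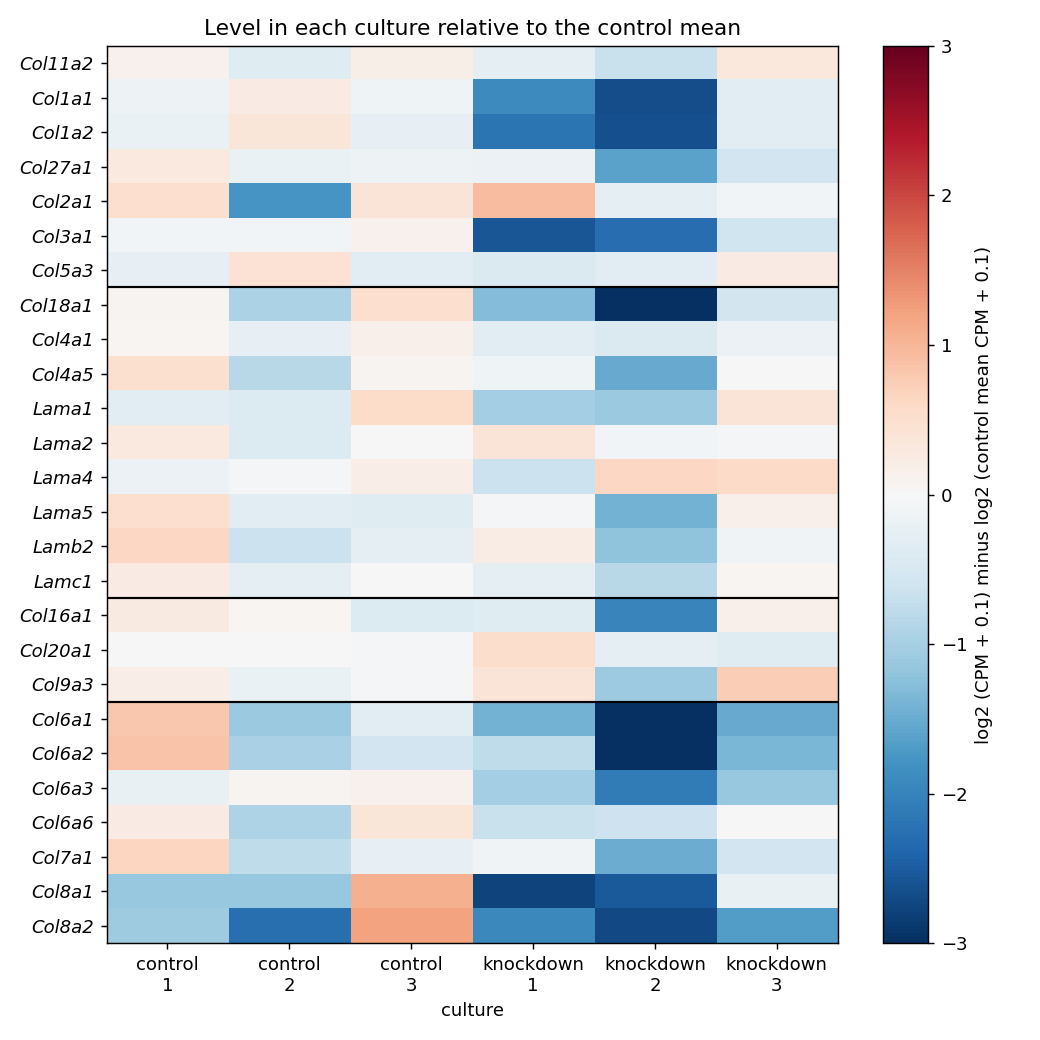
Level of 26 tested collagen and laminin genes in each of the 6 cultures, as the log2 of CPM plus 0.1 minus the log2 of the control mean plus 0.1 (color, blue lower, red higher, limited to 3 in each direction), with black lines between fibrillar, basement membrane, fibril-associated and other collagens. Knockdown replicate 2 is the lowest library for 18 of the 26 genes, and knockdown replicate 3 lies nearer the controls for Col1a1 and Col1a2.

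The fibrillar collagens of types I and III were the clearest of their class. Of the 7 fibrillar members, all were tested, 6 had a log2 fold change below 0, 3 (42.9%, against 7.14% of all genes) had an unadjusted edgeR p under 0.05 with a lower level, and the median of the class was -0.68, or -0.33 without knockdown replicate 2. Col3a1, the single chain of type III collagen, was at 14.2, 14.2 and 16.5 CPM in the controls and at 2.44, 3.01 and 9.91 CPM after knockdown. The groups did not overlap, and knockdown replicate 3 lay between the other knockdown cultures and the controls. The knockdown mean was 34.2% of the control mean (5.12 ± 4.16 against 15.0 ± 1.31 CPM, SD, n = 3 cultures each), and the log2 fold change was -1.55 (standard error, SE, 0.51, adjusted p = 0.390 with edgeR and 0.101 with DESeq2).

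The chains of type I collagen, the main collagen of skin, bone and dura, were low in the same cultures. Col1a1, its alpha 1 chain, was at 31.0, 40.5 and 31.7 CPM in the controls and at 9.11, 5.37 and 27.3 CPM after knockdown. Col1a2, its alpha 2 chain, was at 17.9, 26.5 and 17.2 CPM in the controls and at 4.39, 3.22 and 16.6 CPM after knockdown. For both genes the knockdown cultures lay below the controls, but knockdown replicate 3 was only slightly below the lowest control culture. The log2 fold change was -1.30 for Col1a1 (SE 0.53, edgeR adjusted p = 0.430) and -1.34 for Col1a2 (SE 0.58, edgeR adjusted p = 0.452). The ratio of Col1a1 to Col1a2 counts stayed between 1.53 and 2.07 over the 6 cultures, a span of 1.36-fold, while the level of Col1a1 spanned 7.55-fold and that of Col1a2 8.22-fold.

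The size of these differences depended on knockdown replicate 3. Without it, the log2 fold change was -2.45 for Col3a1, -2.25 for Col1a1 and -2.43 for Col1a2, and DESeq2 then called Col3a1 (adjusted p = 2.45e-10), Col1a1 (6.51e-08) and Col1a2 (1.81e-08), together with Col18a1, Col6a3 and Col8a1. Those 6 members stood against 3.57% of 14726 genes called lower without that library. Without knockdown replicate 2, the values were -1.24 for Col3a1, -0.88 for Col1a1 and -0.93 for Col1a2. The unadjusted edgeR p of Col3a1 stayed under 0.05 whichever library was left out (5.55e-05 to 0.0473), whereas those of Col1a1 and Col1a2 did so only without knockdown replicate 3.

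The other fibrillar members differed less. Col5a3, a type V collagen chain and the fibrillar member that drew the most reads, was at 36.8, 59.1 and 34.4 CPM in the controls and at 32.3, 34.8 and 51.8 CPM after knockdown. Its groups overlapped, with a log2 fold change of -0.13 (SE 0.29), which turned positive without control replicate 2 (0.17) or knockdown replicate 1 (0.025). Col27a1 had a log2 fold change of -0.68, or -0.33 without knockdown replicate 2, and Col11a2, a type XI chain, of -0.17, turning to 0.066 without knockdown replicate 2. Col2a1, the collagen of cartilage, was close to the limit of detection (1 to 20 counts a library). The log2 fold change, 0.22, became -0.17 when control replicate 2 was left out and -0.27 when knockdown replicate 1 was.

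**Figure D2:**
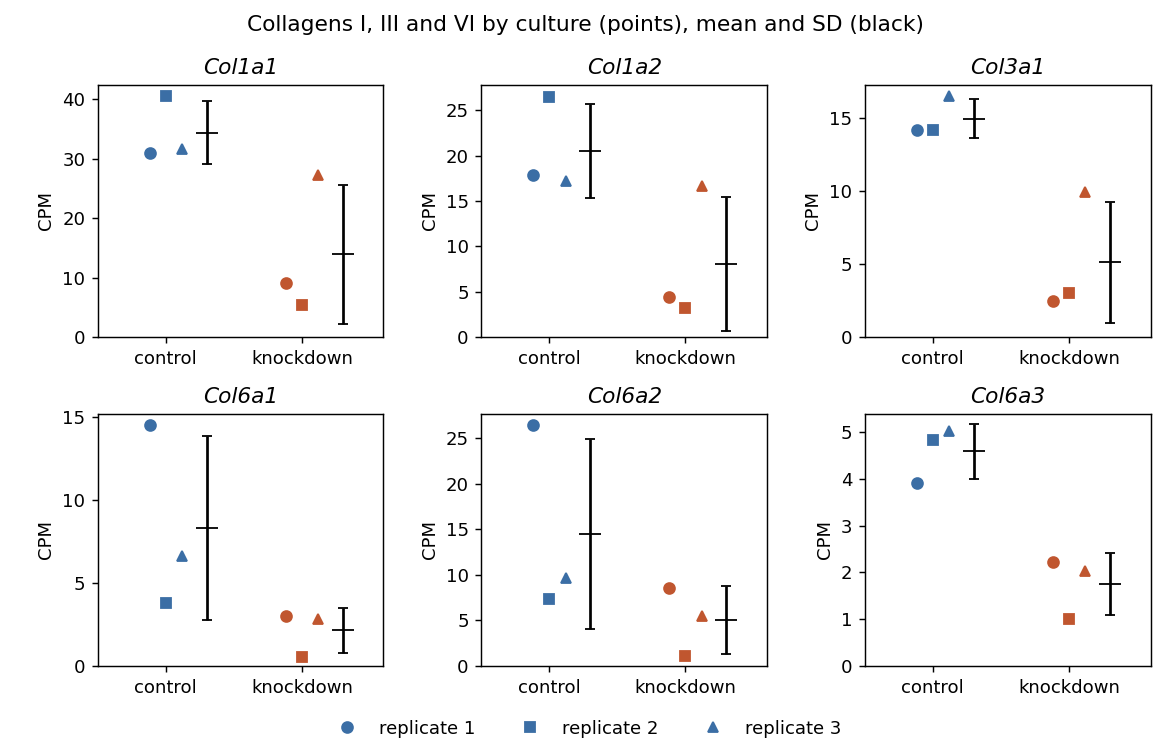
CPM of Col1a1, Col1a2, Col3a1, Col6a1, Col6a2 and Col6a3 in the 3 control (blue) and 3 knockdown (orange) cultures, with symbols for the replicate number and the mean with its SD in black. The groups do not overlap except for Col6a2, where knockdown replicate 1 at 8.51 CPM exceeds control replicate 2 at 7.30 CPM.

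The collagens outside the fibrillar, basement membrane and fibril-associated classes had the lowest class median, -1.47, and all 7 had a log2 fold change below 0. The median was -0.90 when control replicate 3 was left out and -1.03 when knockdown replicate 2 was. At an unadjusted edgeR p under 0.05, 3 of the 7 (42.9%) were lower, against 7.14% of all genes. Type VI collagen makes up 4 of them. Col6a3, its alpha 3 chain, was at 3.91, 4.84 and 5.02 CPM in the controls and at 2.22, 1.00 and 2.04 CPM after knockdown. The groups did not overlap, and all 3 knockdown cultures were low, with a log2 fold change of -1.39 (SE 0.40, adjusted p = 0.356 with edgeR and 0.0730 with DESeq2). Its unadjusted edgeR p, 0.00747, was the smallest among the members and stayed between 0.0112 and 0.0308 whichever library was left out.

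Col6a1 and Col6a2, the shorter chains of type VI collagen, varied widely among the controls. Col6a1 was at 14.5, 3.77 and 6.63 CPM in the controls and at 3.04, 0.55 and 2.83 CPM after knockdown. The groups did not overlap, but control replicate 2 was close to knockdown replicate 1, and the log2 fold change was -1.97 (SE 0.69, adjusted p = 0.408 with edgeR and 0.0937 with DESeq2). Without control replicate 1 it was -1.30, with an unadjusted edgeR p of 0.0908. When control replicate 2 was left out, DESeq2 called Col6a1 and Col8a2, against 1.14% of 13652 genes called lower. Col6a2 was at 26.4, 7.30 and 9.60 CPM in the controls and at 8.51, 1.14 and 5.53 CPM after knockdown. Its groups overlapped, with a log2 fold change of -1.52 (SE 0.71, edgeR adjusted p = 0.483) that was -0.75 when control replicate 1 was left out and -1.01 when knockdown replicate 2 was. The ratio of Col6a1 to Col6a2 counts ran from 0.357 to 0.691, while their levels spanned 26.1-fold and 23.0-fold. Col6a6, a further type VI chain, had a log2 fold change of -0.45, or -0.18 without control replicate 3.

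The proximal promoters of the non-overlapping collagens of types I, III and VI are shown where available. Their levels differed within the groups, and a shared control of these genes was not tested. RefSeq promoters of 300 bases on GRCr8 (250 before and 50 after the annotated start) matched 24 of the 31 members, among them Col1a2 (chr4:33518307-33518606, plus strand), Col6a1 (chr20:11905440-11905739, plus strand) and Col6a3 (chr9:98886909-98887208, minus strand), but not Col1a1, Col3a1 or Col6a2. Each reads 5′ to 3′ on the gene's strand, with the letters TATAAA, or CCAAT on either strand, in capitals.
Col1a2: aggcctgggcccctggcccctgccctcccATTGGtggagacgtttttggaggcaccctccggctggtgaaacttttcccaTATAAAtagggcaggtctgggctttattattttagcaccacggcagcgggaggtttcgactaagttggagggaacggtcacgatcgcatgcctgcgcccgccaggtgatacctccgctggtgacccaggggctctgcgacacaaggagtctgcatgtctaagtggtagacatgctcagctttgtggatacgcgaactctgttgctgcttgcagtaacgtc
Col6a1: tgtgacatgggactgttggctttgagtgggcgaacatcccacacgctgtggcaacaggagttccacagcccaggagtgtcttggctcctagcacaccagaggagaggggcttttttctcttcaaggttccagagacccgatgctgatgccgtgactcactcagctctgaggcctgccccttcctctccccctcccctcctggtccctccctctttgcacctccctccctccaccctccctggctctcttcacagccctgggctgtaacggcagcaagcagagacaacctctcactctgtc
Col6a3: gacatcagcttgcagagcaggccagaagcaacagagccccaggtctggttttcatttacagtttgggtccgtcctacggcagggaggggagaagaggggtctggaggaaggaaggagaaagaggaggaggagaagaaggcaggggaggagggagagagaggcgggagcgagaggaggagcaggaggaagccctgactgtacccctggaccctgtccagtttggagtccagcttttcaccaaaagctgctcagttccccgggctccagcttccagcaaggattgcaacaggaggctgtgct
The Col1a2 window held TATAAA 170 bases and CCAAT, on the opposite strand and so written ATTGG, 221 bases before the annotated start. The windows of Col6a1 and Col6a3 held neither. TATAAA on either strand was found in 4 of the 24 member promoters, each time on the gene's strand, and in 14.2% of 33469 rat promoters. CCAAT on either strand was found in 8 of the 24 and in 37.5%. The 2 motifs share no overlapping match here. These are matches of letters alone.

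Type VIII collagen, a short-chain collagen of vessel and corneal membranes, differed mainly through a single control culture. Col8a2 was at 1.07, 0.41 and 5.57 CPM in the controls and at 0.54, 0.28 and 0.66 CPM after knockdown. Col8a1, the other chain, was at 1.07, 1.07 and 5.25 CPM in the controls and at 0.27, 0.35 and 2.08 CPM after knockdown. Control replicate 3 was the high culture for both genes, and the groups overlapped. The log2 fold change was -2.28 for Col8a2 (SE 0.89, edgeR adjusted p = 0.425, unadjusted p = 0.0306) and -1.47 for Col8a1. Without control replicate 3 they were -0.61 and -0.22. Control replicate 3 was also high in markers of choroid plexus, the epithelium that makes cerebrospinal fluid. Their summed level was 107 CPM there, 9.25 and 6.89 CPM in the other controls and 0.831 to 11.3 CPM in the knockdown cultures. Ttr, the thyroxine carrier that this epithelium secretes, stood at 81.1 CPM in control replicate 3 and at 0.485 to 5.93 CPM elsewhere, while 3 of the 6 markers (Kl, Kcnj13 and Otx2) were under 0.5 CPM in every library. The part of such cells in the values of type VIII collagen was not tested.

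**Figure D3:**
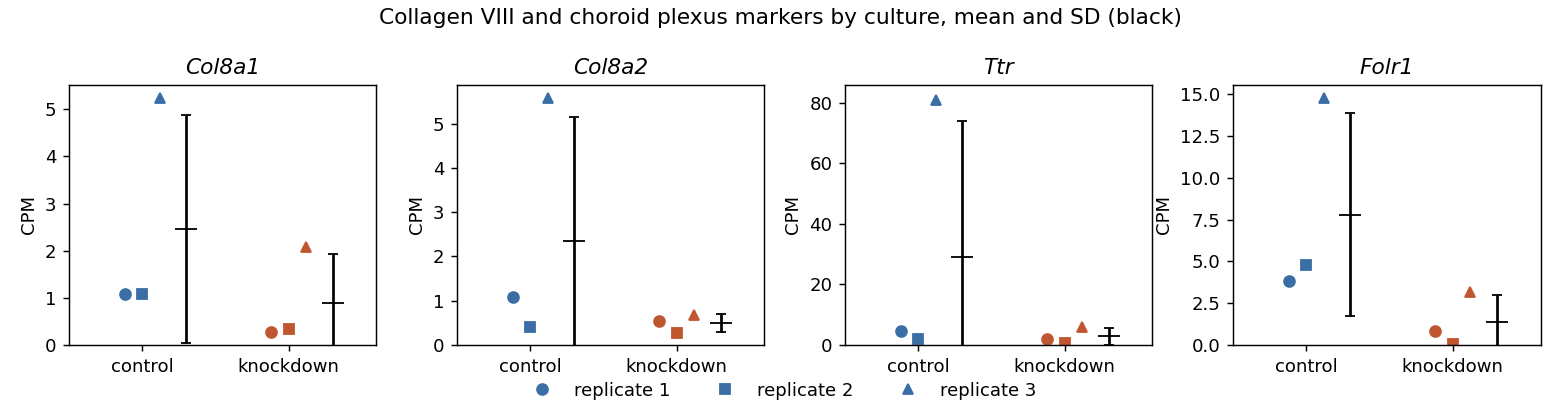
CPM of Col8a1, Col8a2 and the choroid plexus markers Ttr and Folr1 in the 3 control (blue) and 3 knockdown (orange) cultures, with the mean and SD in black (bars are limited at 0). Control replicate 3 is the highest library in all 4 panels, at 5.25, 5.57, 81.1 and 14.8 CPM.

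The basement membrane genes were among the most heavily read members and differed little between the groups. Of the 12, 10 were tested, 8 had a log2 fold change below 0 and 0 had an unadjusted edgeR p under 0.05; the class median was -0.31, or -0.051 without knockdown replicate 2, and in 0 of the 10 were the groups apart. Lamc1, the gamma 1 chain found in most laminins and the member of this class that drew the most reads, was at 152, 105 and 126 CPM in the controls and at 104, 71.8 and 132 CPM after knockdown. The groups overlapped, with knockdown replicate 3 above 2 of the controls, and the log2 fold change was -0.32 (SE 0.26), or -0.082 without knockdown replicate 2 and -0.17 without control replicate 1.

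The partners of Lamc1 in laminin trimers were alike in this. Lamb2, a beta chain enriched at neuromuscular synapses, was at 116, 48.6 and 62.4 CPM in the controls and at 88.5, 32.9 and 70.0 CPM after knockdown. Lama5, the broadly expressed alpha 5 chain, was at 88.1, 50.1 and 48.1 CPM in the controls and at 59.2, 23.0 and 68.7 CPM after knockdown. Both overlapped between groups, control replicate 1 was the highest library and knockdown replicate 2 the lowest for each, and the log2 fold changes of -0.25 and -0.31 turned positive without control replicate 1 (0.20 and 0.034) or without knockdown replicate 2 (0.097 and 0.075). Lamb2 over Lamc1 counts stood at 0.765, 0.461 and 0.495 in the controls and 0.853, 0.459 and 0.530 after knockdown, so replicate 1 of either group had the highest ratio.

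The remaining laminin alpha chains were expressed at 1.28 to 6.82 CPM. The log2 fold change was 0.30 for Lama4, an alpha chain of vessel walls, 0.088 for Lama2, the alpha chain of muscle laminin, and -0.43 for Lama1, the alpha chain of early embryonic laminin. That of Lama2 became -0.058 when control replicate 2 was left out and -0.061 when knockdown replicate 1 was, and that of Lama1 was -0.0051 when control replicate 3 was. That of Lama4 was 0.13 when knockdown replicate 2 was left out and 0.64 when knockdown replicate 1 was. Lamb3, a beta chain of epithelial laminin, was not tested, with 2 to 11 counts a library.

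Type IV collagen also differed little between the groups, without following Lamc1 closely. Counts of Col4a1 over Lamc1 ran from 0.407 to 0.624, a span of 1.53-fold. The level of Col4a1 spanned 1.51-fold and that of Lamc1 2.12-fold. Col4a1, which with Col4a2 makes the ubiquitous type IV network, was at 63.3, 51.2 and 67.8 CPM in the controls and at 48.3, 44.8 and 53.9 CPM after knockdown. Of its knockdown cultures only replicate 3 exceeded the lowest control, and the log2 fold change was -0.31 (SE 0.20, edgeR adjusted p = 0.609). Col4a5, a chain of specialized basement membranes, had -0.40, which became -0.019 when knockdown replicate 2 was left out and -0.092 when control replicate 1 was. Col4a4 was not tested, with 0 to 25 counts a library.

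Col18a1 stood apart from the other tested members of this class, although the relative Lama3 was about as low (-1.29). For the untested Col4a4 and Lamb3, DESeq2 gave log2 fold changes of -1.88 and -0.995, at few counts. It encodes a basement membrane proteoglycan whose C-terminal fragment is endostatin, and it was at 15.1, 7.30 and 20.4 CPM in the controls and at 5.75, 1.39 and 9.65 CPM after knockdown. Control replicate 2 lay below knockdown replicate 3, so the groups overlapped. The log2 fold change was -1.36 (SE 0.64, edgeR adjusted p = 0.484), the lowest of the 10 tested basement membrane members, and ran from -0.86 without knockdown replicate 2 to -2.03 without knockdown replicate 3.

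**Figure D4:**
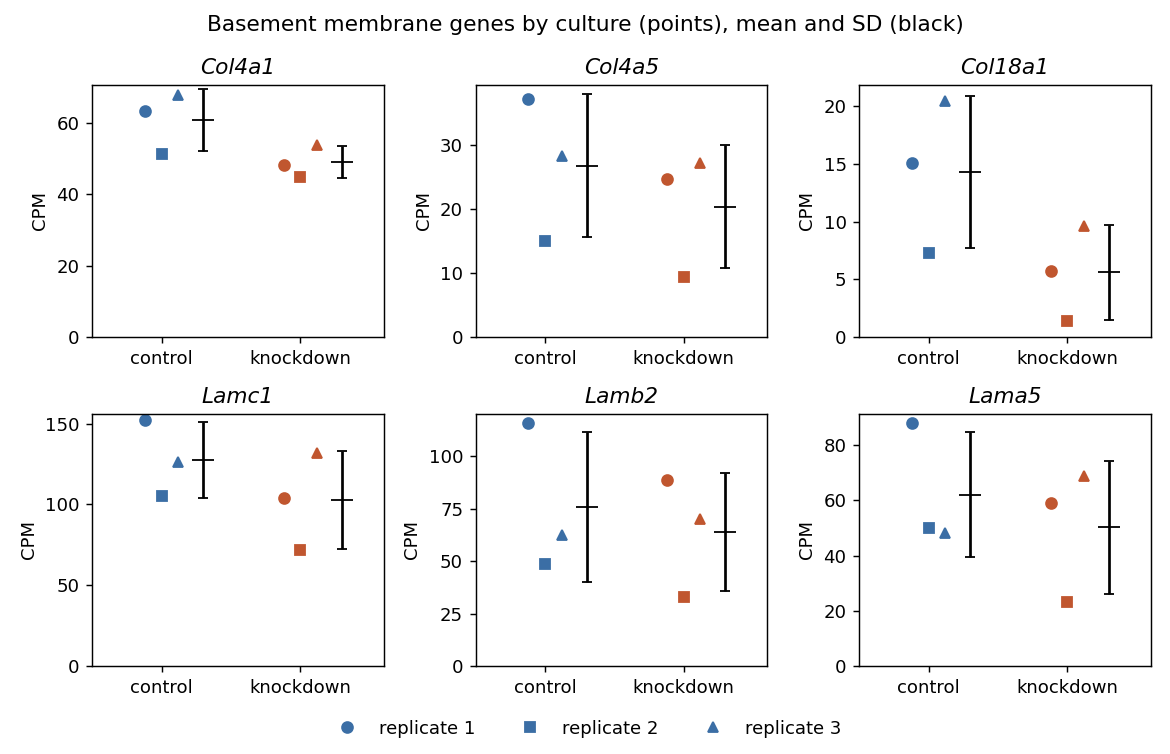
CPM of the basement membrane genes Col4a1, Col4a5, Col18a1, Lamc1, Lamb2 and Lama5 in the 3 control (blue) and 3 knockdown (orange) cultures, with symbols for the replicate number and the mean with its SD in black. The groups overlap in every panel, and knockdown replicate 2 is the lowest library in all 6.

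The fibril-associated collagens, which coat fibrils without forming them, had a median of 0.014 over 3 tested members. Col16a1 was at 99.8, 85.1 and 61.8 CPM in the controls and at 63.4, 20.9 and 91.9 CPM after knockdown. Knockdown replicate 2 was low while replicate 3 lay within the control range, and the log2 fold change was -0.49 (SE 0.46), or -0.049 without knockdown replicate 2. Col9a3, a type IX chain, and Col20a1 had log2 fold changes of 0.20 and 0.014, which fell below 0 without knockdown replicate 3 (-0.18, Col9a3) or without knockdown replicate 1 (-0.31, Col20a1). Col7a1, the anchoring fibril collagen of skin, belongs to the other collagens and had -0.79 at 0.208 to 1.27 CPM, or -0.23 without control replicate 1.

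The transmembrane collagens among the members were hardly detected. Col13a1 had 2, 6 and 5 counts in the controls and 0, 2 and 1 counts after knockdown. Col17a1, a collagen of epithelial hemidesmosomes, had 1, 0 and 4 counts in the controls and 2, 0 and 2 counts after knockdown. Neither was tested with edgeR. For Col13a1 DESeq2 gave a log2 fold change of -2.58 (unadjusted p = 0.0987) and no adjusted p, and its CPM after knockdown (0, 0.0693 and 0.0443) lay below those of the controls (0.0822, 0.492 and 0.197), at a depth of 0 to 6 counts a library. Of the relatives, Col23a1 and Col25a1 are also transmembrane. Col25a1, found in neurons, was at 3.86, 4.51 and 5.13 CPM in the controls and at 5.80, 3.71 and 2.88 CPM after knockdown. Its groups overlapped, with a log2 fold change of -0.13 (SE 0.36) that became 0.0072 when control replicate 3 was left out and 0.075 when knockdown replicate 3 was. Col23a1 was at 0.82 to 1.73 CPM in control and at 0.173 to 0.976 CPM in knockdown cultures, with a log2 fold change of -1.04 (SE 0.64), or -0.53 without knockdown replicate 2.

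**Figure D5:**
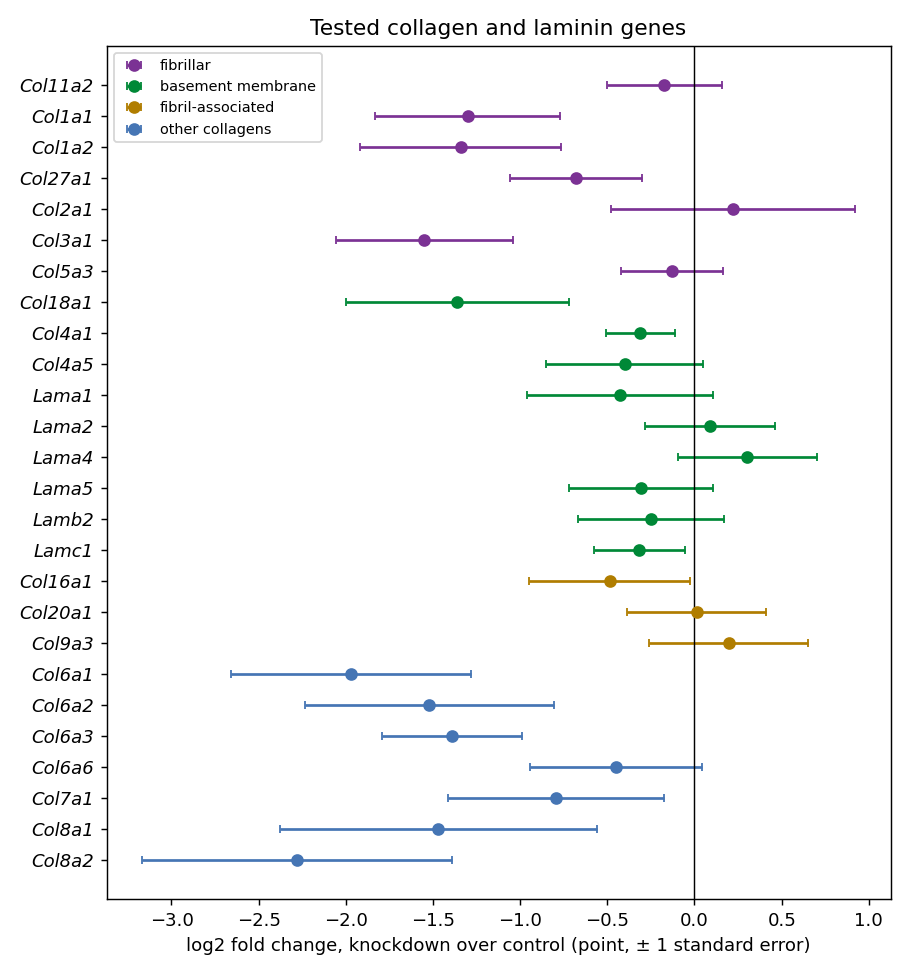
Log2 fold change, knockdown over control, of 26 tested collagen and laminin genes (points, with bars of 1 standard error), colored by class. Col1a1, Col1a2, Col3a1, Col6a1, Col6a2, Col6a3, Col8a1, Col8a2 and Col18a1 lie between -1.30 and -2.28, while the laminin chains shown lie between -0.43 and 0.30.

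The median of the relatives lay nearer 0, a difference that was not tested. Of 20, 16 were tested and 10 of these (62.5%, against 52.4% of all genes) had a log2 fold change below 0, with a median of -0.21. The edgeR and DESeq2 tests called 0 of them, and 3 (18.8%, against 7.14% of all genes) were lower at an unadjusted edgeR p under 0.05, namely Col26a1 (-1.68), Lama3 (-1.29), an epithelial laminin chain, and Col19a1 (-1.06). The unadjusted p of Col26a1 stayed between 0.00717 and 0.0231 whichever library was left out. Those of Lama3 and Col19a1 were under 0.05 only when control replicate 2 (0.0188 and 0.0169) or knockdown replicate 3 (0.014 and 0.0178) was left out. Col5a2, a type V chain that joins type I fibrils, went the other way. It was at 49.9, 21.5 and 36.0 CPM in the controls and at 55.2, 53.3 and 57.7 CPM after knockdown, with every knockdown culture above every control and a log2 fold change of 0.63 (SE 0.30, edgeR adjusted p = 0.485). Col5a1, its partner chain, had -0.30, or -0.042 without knockdown replicate 2, and Col11a1, a type XI chain, -0.69.

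Enzymes that fold, trim and crosslink collagen gave 25 tested genes. Of these, 17 (68.0%) had a log2 fold change below 0, against 52.4% of all genes, and the median was -0.21. At an unadjusted edgeR p under 0.05, 4 (16.0%) were lower and 1 was higher, against 7.14% and 3.69% of all genes. The 4 with the smallest p were Tll1, a procollagen C-proteinase (-1.21), Loxl2, a crosslinking oxidase (-1.36), Colgalt1, a collagen galactosyltransferase (0.83), and Adamts2, the procollagen N-proteinase (-1.69). Adamts2 was at 4.85, 7.05 and 7.90 CPM in the controls and at 1.79, 0.693 and 3.67 CPM after knockdown, without overlap and with replicate 3 the highest of the knockdown cultures, as for type I collagen. DESeq2 did not call Adamts2 in the model of condition alone (adjusted p = 0.101), and called it without knockdown replicate 3 (adjusted p = 0.000439).

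Of 17 tested partners of fibrillar matrix, 3 (17.6%) were lower and 0 higher at that p, against 7.14% and 3.69% of all genes, with a median of -0.73. The 4 with the smallest p were the proteoglycan Dcn (-2.13), the collagen-binding integrin Itga11 (-1.74), the matricellular Thbs2 (-1.52) and the microfibril gene Mfap2 (0.56). Itga11, at 0.163, 0.104 and 0.354 CPM after knockdown, passed the filter on reads through the controls alone. Its direction, and its place in the count of 3, are therefore tied to that filter. DESeq2 did not call Dcn in the model of condition alone (adjusted p = 0.0661), and called it without knockdown replicate 1 (adjusted p = 0.0181). Of 18 tested partners of basement membranes, 0 passed that p, with a median of -0.16. In that model and with all libraries, edgeR and DESeq2 called 0 genes of these 3 lists.

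Markers of other cells moved with the collagens in part. The 13 fibroblast and meningeal markers in the table, 3 of them (Dcn, Fmod and Lum) also in the list of fibrillar matrix partners, summed to 89.4, 44.9 and 90.0 CPM in the controls and to 51.1, 12.1 and 67.2 CPM after knockdown. Knockdown replicate 2 was lowest, and the sums of the groups overlapped. Of the 13, 5 (Lum, Ogn, Slc6a20, Foxc1 and Foxc2) were under 0.5 CPM in every library. Fmod and Pdgfrb made up most of each sum, at 35.6 and 43.7 CPM in control replicate 1, for example. Of the 6 tested markers, 5 had a log2 fold change below 0. The groups overlapped for Fmod (-1.07), Pdgfrb (-0.41), Islr (-0.46) and Twist1 (0.15), but not for Dcn (-2.13) and Igf2. DESeq2 called 2 markers of the list, Igf2 and Slc6a13, in the model of condition alone. Igf2, a growth factor of meninges, was at 1.15, 1.39 and 5.06 CPM in the controls and at 0.217, 0.173 and 0.531 CPM after knockdown (log2 fold change -3.05, adjusted p = 0.331 with edgeR and 0.0103 with DESeq2). Without control replicate 3 the DESeq2 log2 fold change of Igf2 was -2.01 (adjusted p = 0.541), while without knockdown replicate 1 or 2 it was -2.85 or -2.73 (adjusted p = 0.0964 or 0.119). The meningeal GABA transporter Slc6a13 had 12, 4 and 21 counts in control and 0 counts in all knockdown cultures, at least 13.9-fold lower against a floor of 3 counts over the group. It was not tested with edgeR, and DESeq2 called it (adjusted p = 0.0154), with an adjusted p of 0.0681 without knockdown replicate 1 and 0.1 without knockdown replicate 2. DESeq2 gave Slc6a13 no adjusted p when a control library was left out.

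Markers of endothelial and mural cells summed to 3.28 to 22.5 CPM in control and 3.50 to 5.75 CPM in knockdown cultures, with 7 of 11 under 0.5 CPM in every library, among them the endothelial genes Cdh5 and Cldn5. The top of the control range came from Kdr in control replicate 3, at 18.4 CPM, against 1.77 and 1.07 CPM in control replicates 1 and 2. Astrocyte markers summed to 9140, 4540 and 4260 CPM in the controls and to 5440, 2040 and 4730 CPM after knockdown. Of 9 tested astrocyte markers, 8 (88.9%) had a log2 fold change below 0, with a median of -0.53. Of 8 neuronal markers, 7 (87.5%) did, with a median of -0.37, against 52.4% of all genes. A lean below 0 was thus not particular to the collagens and laminins. In the oligodendrocyte lineage 5 of 10 lay below 0. Microglial markers summed to 81.4, 11.5 and 5.53 CPM in the controls and to 6.40, 0.381 and 2.35 CPM after knockdown, so control replicate 1 was the high culture and the sums overlapped. All 6 tested microglial markers were lower at an unadjusted edgeR p under 0.05, with a median log2 fold change of -3.56. At such low levels a marker reached the test mainly through the controls. This count is therefore tied to the filter on reads. Tyrobp, for example, stood at 0.325, 0 and 0.221 CPM after knockdown. Of the 6, Tyrobp, an immune receptor adaptor, and Laptm5, a lysosomal membrane protein, were called by DESeq2 (adjusted p = 0.0251 and 0.027). Both lost the call without control replicate 1 (adjusted p = 0.69 and 0.79) and without knockdown replicate 2 (0.167 and 0.216), as did Tyrobp without control replicate 2 (0.0513) and Laptm5 without knockdown replicate 3 (0.0626). Knockdown replicate 2 was the lowest library in the fibroblast, astrocyte, microglial and choroid plexus sums. It was not the lowest in the endothelial and mural sums (control replicate 2, 3.28 CPM), in the neuronal sums (knockdown replicate 1, 3740 CPM) or in those of the oligodendrocyte lineage, which were 624, 1760 and 1370 CPM in the controls and 773, 686 and 2180 CPM after knockdown. The part of these cells in the collagen values was not tested.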

How the data were processed

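RNA was measured in 6 rat cultures, 3 a group, grouped by their labels, and the labels call them biological replicates. The authors used an unstranded TruSeq kit and single reads of 50 bases, CASAVA 1.8.2, FastQC 0.10.0, STAR 2.3.0 on rn5, SAMtools 1.2, HTSeq 0.6 and, for their own test, DESeq2 1.8.1. The deposited values are raw counts per gene, without normalization. Totals were 13061705 to 29654651 counts. Without strand, overlapping genes share reads, and gene copies were not separated.

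The whole table was fitted with edgeR 4.0.16 in R 4.3.3 (quasi-likelihood test, TMM, filterByExpr with a minimum of 10 counts, condition alone) and Benjamini-Hochberg adjustment over the 13917 genes tested, with a threshold of 0.05. The filter keeps a gene with enough reads in as many libraries as a group holds. A low gene can thus be tested through the controls alone. DESeq2 1.42.0 and limma-voom (limma 3.58.1) were further tests. CPM use TMM-scaled totals. Standard errors are the log2 fold change over the square root of F. Steps were tested on simulated data. Alternatives were RLE and upper-quartile scaling, no filter, at least 10 counts in every library, a replicate block and leaving out each library.

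The members and lists were chosen with earlier results of these data known. Named are members with an unadjusted edgeR p under 0.05 or called by DESeq2, the most-read member of each class, and up to 4 genes a list with the smallest p. Other members and relatives, and single markers, were named after their values were seen. Names came from the table's symbols (17114 genes) or a match to RefSeq (2858), and 6433 genes had none. The values of 1 tested member are not reported here and are left out of the plots; it remains in the counts and medians.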

Additional observations from a re-analysis of the deposited data

How the results depend on the processing

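edgeR called 0 members under each of its alternatives, and limma-voom, run once, called 0. DESeq2 called 0 to 6 members when 1 library was left out, with 6 without knockdown replicate 3 and 2 (Col6a1 and Col8a2) without control replicate 2, where 302 of 13652 genes were called. The number of members with an unadjusted p under 0.05 was 6 and ran from 3 to 12 over those fits. The labels do not say that a replicate number marks a shared batch, although same-numbered libraries share a suffix in the count table. With 3 libraries a group, the correlations could not settle whether the libraries were paired. Same-numbered libraries correlated in their deviations from the group means at 0.607, 0.101 and -0.0908, and not every sample correlated best with its own number. With the replicate number as a block, edgeR called 0 and DESeq2 6 members (Col18a1, Col1a1, Col1a2, Col3a1, Col6a1 and Col6a2), and DESeq2 called 294 of 14094 genes in place of 195 of 14832. With the block, DESeq2 also called Adamts2 and Dcn, with an adjusted p of 0.0138 and 0.0488. Col18a1 and Col6a2, whose groups overlap, were lower in the knockdown library of each same-numbered pair. Under the block, 10 members had an unadjusted p under 0.05 with either tool. The share of all genes at that p was counted only for edgeR with all libraries and condition alone. The counts of the other fits therefore have no such share beside them.

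All 6 members with an unadjusted p under 0.05 had a log2 fold change below 0 under every one of the 20 alternatives that tested them; the strict filter did not test Col8a2. Class medians moved by less than 1 SD between cultures. Of the 27 tested members, 9 changed sign under 1 or more alternatives. With edgeR and then DESeq2, these were Col11a2 without knockdown replicate 2 (0.066, 0.060), Col2a1 without control replicate 2 (-0.17, -0.18) or knockdown replicate 1 (-0.27, -0.23), Col5a3 without control replicate 2 (0.17, 0.17) or knockdown replicate 1 (0.025, 0.038), and Lama2 without control replicate 2 (-0.058, -0.065) or knockdown replicate 1 (-0.061, -0.055). Likewise Lama5 without control replicate 1 (0.034, 0.067) or knockdown replicate 2 (0.075, 0.073), Lamb2 without the same libraries (0.20, 0.23 and 0.097, 0.094), Col9a3 without knockdown replicate 3 (-0.18, -0.16) and the relative Col25a1 without control replicate 3 (0.0072, 0.020) or knockdown replicate 3 (0.075, 0.094) changed sign. Lama1 turned to 0.0083 with DESeq2 without control replicate 3. Col20a1 fell below 0 with limma-voom (-0.070), upper-quartile scaling (-0.017), the strict filter (-0.0026), the replicate block (-0.034 with edgeR, -0.0090 with DESeq2) and without knockdown replicate 1 (-0.31, -0.30), and Col9a3 with limma-voom (-0.049). Beyond fewer libraries, the cause was not tested.

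Depth limits Col2a1, Col13a1, Col17a1, Lamb3 and Col4a4, with at most 25 counts in any library. The strict filter of 10 counts in every library kept 22 of the 27 tested members and left out Col2a1, Col6a6, Col7a1, Col8a1 and Col8a2.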

Other observations

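Neighbouring collagen genes did not all move alike. On chromosome 9 of rn5, Col3a1 (51689492 to 51725414) and Col5a2 (51758657 to 51823228) are 33.2 kb apart, with log2 fold changes of -1.55 and 0.63. Col9a1 and Col19a1, 13.6 kb apart on the same chromosome, had 0.27 and -1.06. On chromosome 20, Col18a1, Col6a1 and Col6a2 follow each other at distances of 322 kb and 95.7 kb, with -1.36, -1.97 and -1.52. Col4a6 and Col4a5 on chromosome X had -0.54 and -0.40. These pairs were picked from the annotation as collagen genes that lie near each other, and the differences within pairs were not tested.

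Among enzymes that modify collagen in the endoplasmic reticulum, P4hb, the beta subunit of prolyl 4-hydroxylase, was at 504, 328 and 402 CPM in control and at 732, 536 and 453 CPM in knockdown replicates 1 to 3, with overlapping groups and a log2 fold change of 0.48 (edgeR adjusted p = 0.530). Plod3, a lysyl hydroxylase, was at 42.8 to 51.8 CPM in control and at 53.6 to 66.7 CPM in knockdown cultures, without overlap (log2 fold change 0.39, DESeq2 adjusted p = 0.503). P4hb and Plod3 were named after their values were seen, and other enzymes of this kind went the other way. P4ha2, a prolyl 4-hydroxylase subunit, had a log2 fold change of -0.43, without overlap. In the whole list of collagen enzymes, 17 of 25 tested genes lay below 0 and 8 above.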
